A study of Gallus gallus with 8 samples.

Results

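Accessible chromatin of chicken primary fibroblasts was compared with that of red blood cells from embryonic day 10 (eRBC), using all 30239 peaks of the 2 cell types out of 53397 peaks in the 4 lists of the series. The fibroblast list held 17681 peaks and the eRBC list 12558. A peak was called shared when it overlapped a peak of the other list by at least 1 bp, and every peak fell into 1 of 3 classes: shared, fibroblast without eRBC, or eRBC without fibroblast. The choice used positions only.

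Chromatin accessibility had been measured by ATAC-seq, in which the transposase Tn5 inserts sequencing adapters into open DNA, with Tn5 treatment for 30 min and 10 PCR cycles. There were 2 samples of wild-type fibroblasts, grown in culture, and 2 samples of wild-type primary embryonic red blood cells. The HD3 line of chicken erythroblasts, which are immature red cells, and red blood cells (aRBC) taken from hens 28 to 38 weeks old, with 2 wild-type samples each, served here only to show where the peaks of both main lists recurred. Fibroblasts are connective tissue cells that make extracellular matrix. Red blood cells of birds keep their nucleus while its chromatin condenses during maturation, so that open sites can be mapped in circulating cells. Open sites are typically promoters, which many cell types share, and enhancers and other elements, which are more often restricted to a lineage.

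Each cell type was represented by 1 peak list. Peak names started with Fb1CLEANED in the fibroblast, eRBC2CLEANED in the eRBC, aRBC2CLEANED in the aRBC and HD32_macs2_0.01 in the HD3 list. What these tags mean is not stated, nor whether a list came from 1 sample or from both. There was therefore no replicate error on any value and no test between cell types, and read depth is unknown. In bulk samples such as these, a site open in few cells and a site weakly open in all of them cannot be told apart. Intervals given below are 95% intervals for counting error over peaks, which lie beside one another and are not independent. Positions are in GRCg6a, the build named in the submitters' processing notes. The gene table at hand was of another assembly, so peaks were not assigned to genes, and the cell types could not be checked against marker genes.

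The first question was how much of the open chromatin of a cultured connective tissue cell recurs in an embryonic red blood cell. Of the fibroblast peaks, 5164 (29.2%, 95% Wilson interval 28.5% to 29.9%) overlapped an eRBC peak and 12517 did not. Of the eRBC peaks, 5120 (40.8%, 39.9% to 41.6%) overlapped a fibroblast peak and 7438 did not. In bases, overlapped peaks made up 37.1% of the fibroblast list and 50.001% of the eRBC list. The higher share in the eRBC list went with the shorter length of that list. In lists of 12558 peaks each, chosen by p-value, the shares were 33.6% of fibroblast and 33.7% of eRBC peaks. Keeping only peaks whose −log10 q reached 10 left 5918 fibroblast and 9345 eRBC peaks, of which 39.1% and 25.04% were overlapped. The order of the shares was thus reversed together with that of the list lengths.

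The overlapping peaks formed 5237 pairs, of which 4876 were one to one. Few peaks met more than 1 partner: 65 fibroblast peaks and 114 eRBC peaks did so, with at most 3 partners. Within a pair the positions were close. The summits lay a median of 37 bp apart, and 61.0% of pairs had summits within 50 bp of each other, while 6.55% had them more than 200 bp apart. The overlap had a median of 156 bp and reached 50 bp or more in 98.4% of pairs. Pairs at the limit of the definition were rare, with 19 pairs that overlapped by 10 bp or less. On the other side of it, 11 fibroblast and 10 eRBC peaks missed the other list by 10 bp or less.

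Where both cell types had a peak, the fibroblast peak was the narrower one in most pairs. The eRBC peak was wider in 4147 pairs (79.2%, 78.1% to 80.3%), the fibroblast peak in 1072, and both had equal width in 18. The median ratio of widths, fibroblast over eRBC, was 0.670. In 60.5% of pairs the fibroblast peak lay wholly inside the eRBC peak, and in 10.4% the eRBC peak lay inside the fibroblast peak. Width depends on depth and on the caller's settings, whose part in this difference was not tested.

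Shared peaks were wider than unshared peaks in both lists. The median width was 179 bp (95% interval of the median 175 to 182 bp) for overlapped fibroblast peaks and 131 bp (130 to 132 bp) for those without eRBC. In the eRBC list the medians were 293 bp (288 to 298 bp) for overlapped peaks and 195 bp (192 to 197 bp) for peaks without fibroblast. The classes nevertheless overlapped widely. The quartiles of overlapped fibroblast peaks were 128 and 261 bp, and those of the unshared ones 104 and 179 bp. Overlapped eRBC peaks had quartiles of 196 and 413 bp, and unshared ones of 134 and 280 bp. Peaks over 500 bp were 3.80% of overlapped and 0.431% of unshared fibroblast peaks, and 14.1% of overlapped and 3.13% of unshared eRBC peaks. A wider interval can touch a peak of the other list more easily, and the part of this in the difference of widths was not tested. When every peak was replaced by 200 bp around its summit, 27.8% of fibroblast and 39.0% of eRBC peaks were overlapped.

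**Figure D1:**
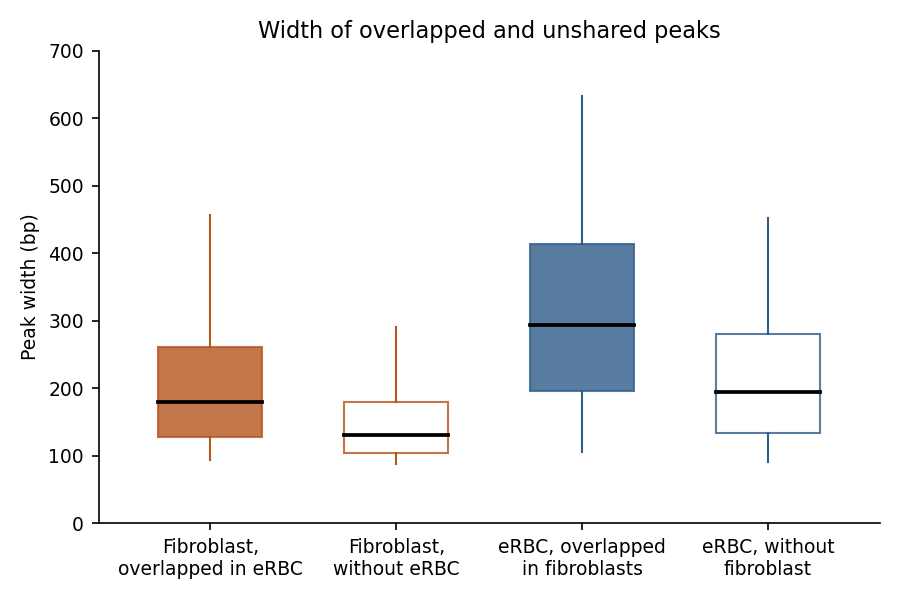
Peak width in bp for overlapped (filled) and unshared (open) peaks of the fibroblast list and the eRBC list. Black lines are medians, boxes the quartiles and vertical lines reach the 5th and 95th percentiles; overlapped peaks have medians of 179 bp in fibroblasts and 293 bp in eRBC, and unshared peaks 131 bp and 195 bp.

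Strength was described by the authors' fold enrichment at the summit, the ratio of the signal to the caller's local background, ranked within each list because values of different lists are not comparable. Overlapped fibroblast peaks had a median percent rank of 34.4 (0 being the strongest peak and 100 the weakest), and those without eRBC 55.8. In the eRBC list the median percent rank was 29.1 for overlapped peaks and 62.4 for peaks without fibroblast. Sorted into deciles, the overlapped share of fibroblast peaks was 54.8% (52.5% to 57.1%) in the strongest decile and 17.4% (15.7% to 19.3%) in the weakest. For eRBC peaks it was 82.3% (80.1% to 84.3%) in the strongest decile and 14.9% (13.0% to 17.0%) in the weakest. In each list the share was lower in every decile than in the one above it. The strongest eRBC peaks thus mostly had a fibroblast counterpart, whereas 799 of the 1769 strongest fibroblast peaks had none in eRBC. The weakest deciles of the 2 lists had intervals that overlapped.

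**Figure D2:**
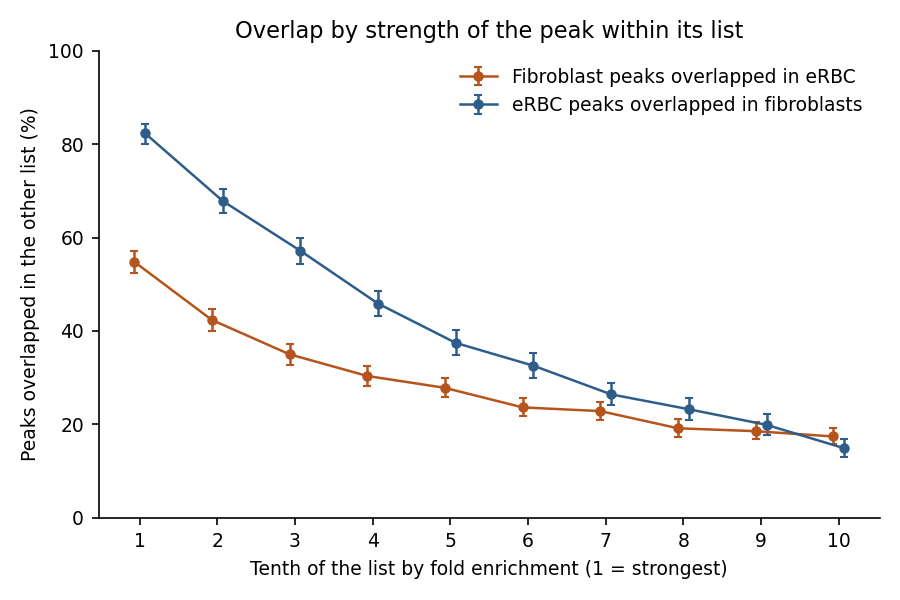
Share of peaks (%) that overlap the other list, by decile of fold enrichment within the list, with 95% Wilson intervals. The fibroblast line runs from 54.8% in the strongest decile to 17.4% in the weakest, and the eRBC line from 82.3% to 14.9%.

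Within parts of the lists sorted by fold enrichment, the wider peaks were more often overlapped. Strength still varied within a part, and whether its wider peaks were also its stronger ones was not tested. Within the strongest of 3 equal parts of the fibroblast list by fold enrichment, 55.9% of peaks wider than the median of that part and 30.6% of the narrower ones were overlapped. In the strongest part of the eRBC list these shares were 75.9% and 57.9%. In the weakest part they were 23.3% and 14.2% for fibroblast peaks, and 23.1% and 16.9% for eRBC peaks.

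Strength itself was related between the partners of a pair. Over the 5237 pairs the fold enrichments had a Spearman rank correlation of 0.378, and the log2 fold enrichments a Pearson correlation of 0.397. Widths had a rank correlation of 0.281. These describe the pairs across the genome, which share chromosome and sequence composition and are not independent. A fibroblast peak of the strongest decile had an eRBC partner with a median percent rank of 12.7, and one of the weakest decile a partner with 65.3. In 439 pairs both peaks belonged to the strongest decile of their list, which was 44.4% of the pairs of the strongest fibroblast peaks and 41.5% of those of the strongest eRBC peaks.

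The pair with the best ranks in both lists lay on chromosome 31, where the fibroblast peak spanned 3132688 to 3132938 (rank 4) and the eRBC peak 3132686 to 3132952 (rank 1). Next came a pair on chromosome 33, with a fibroblast peak from 77095 to 77571 (rank 7) and an eRBC peak from 77151 to 77531 (rank 6). On chromosome 1, the pair that followed spanned 175202311 to 175202488 in fibroblasts (rank 10) and 175202313 to 175202485 in eRBC (rank 3). The remaining pairs of the best 5 were on chromosome W, from 6812500 to 6812930 in fibroblasts, and on chromosome 33, from 11629 to 12137 in fibroblasts. The pair on W lay beside the last position that any list reached there, 6812934, and the one on chromosome 33 near its start. The 5 pairs overlapped by 173 to 439 bp, and all 10 peaks also had a counterpart in both the HD3 and the aRBC list.

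High fold enrichment was also seen without a counterpart. The strongest fibroblast peak without eRBC, on chromosome 1 from 172115556 to 172115723, had rank 3 in its list with a fold enrichment of 46.8, and its nearest eRBC peak was 153385 bp away. The others of the top 5 had ranks 5 to 14 and lay on chromosome 20 from 516505 to 516599, chromosome 31 from 74641 to 74761, chromosome 8 from 24657635 to 24657781 and chromosome 33 from 37700 to 37864. All 5 had a counterpart in the aRBC list, and the first also in the HD3 list, so none was a peak of fibroblasts alone.

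The strongest eRBC peak without fibroblast stood lower in its list than the strongest fibroblast peak without eRBC did. It lay on chromosome 19 from 33976 to 34201, with rank 14 and a fold enrichment of 34.4, only 516 bp from a fibroblast peak. The next had ranks 37 to 65, on chromosome 15 from 269800 to 269919, chromosome 7 from 4621159 to 4621663, chromosome 14 from 113164 to 113310 and chromosome 16 from 1819672 to 1819796. All 5 had a counterpart in the HD3 list and 3 of them in the aRBC list. Of the 5, only the peak on chromosome 7 was more than 10 kb from a fibroblast peak, at 18927 bp.

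The unshared classes differed in how often they recurred in the other erythroid lists. The definition of the classes did not use these lists, but it used the eRBC list, which shares many peaks with them. The direction of the difference is thus partly set by the definition. Among eRBC peaks as a whole, 53.7% overlapped the HD3 list, 57.1% the aRBC list and 72.7% either of them. Among fibroblast peaks these shares were 28.0%, 30.7% and 40.5%. Fibroblast peaks without eRBC recurred in 8.05% (7.58% to 8.53%) in HD3, in 11.4% (10.8% to 12.0%) in aRBC and in 18.9% (18.2% to 19.6%) in either. Peaks of eRBC without fibroblast recurred in 37.6% (36.5% to 38.7%) in HD3, in 42.7% (41.6% to 43.9%) in aRBC and in 58.6% (57.5% to 59.8%) in either. The remainder, found in none of the other lists, was 10148 fibroblast and 3076 eRBC peaks. The gap between the classes was kept among peaks with a −log10 q of at least 10 in all lists, where 27.5% of fibroblast peaks without eRBC and 62.7% of eRBC peaks without fibroblast recurred in HD3 or aRBC.

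Shared peaks recurred most. Of the overlapped fibroblast peaks 92.7% (92.0% to 93.4%) and of the overlapped eRBC peaks 93.0% (92.3% to 93.7%) had a counterpart in HD3 or aRBC, and 61.3% and 62.1% had one in both. Peaks that were in fibroblasts, HD3 and aRBC but missed by the eRBC list were rare, with 63 of 12517 (0.503%, 0.394% to 0.643%). More eRBC peaks without fibroblast, 1610 of 7438 (21.6%, 20.7% to 22.6%), were in both HD3 and aRBC. The order of these shares is again partly set by the definition of the classes. Most fibroblast peaks in both HD3 and aRBC were shared with eRBC, 3168 against the 63 that were not. Of the eRBC peaks in both HD3 and aRBC, 3180 were shared with fibroblasts and 1610 were not. Shared peaks found in neither HD3 nor aRBC numbered 376 in the fibroblast and 358 in the eRBC list. They stood low in their lists, at a median percent rank of 63.7 and 67.9.

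**Figure D3:**
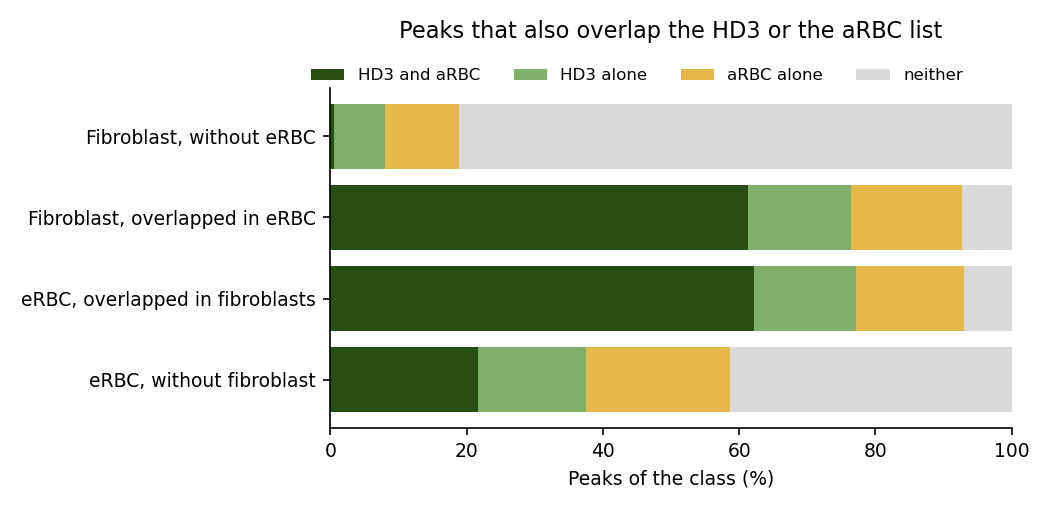
Share of the peaks of each class (%) that also overlap the HD3 erythroblast list, the adult red blood cell (aRBC) list, both or neither. In neither list were 81.1% of fibroblast peaks without eRBC and 41.4% of eRBC peaks without fibroblast.

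Recurrence went with strength, and in a different way in the 2 unshared classes. Of the strongest decile of the eRBC list, 222 peaks had no fibroblast counterpart, and 86.9% of these recurred in HD3 or aRBC, against 31.6% of the 1068 in the weakest decile. Recurrence in HD3 was 73.9% in the strongest and 13.4% in the weakest decile. Among fibroblast peaks without eRBC, recurrence in aRBC was 36.9% in the strongest decile, between 6.45% and 13.5% in the next 8, and 16.8% in the weakest. Recurrence in HD3 was 12.4% in the strongest and 1.51% in the weakest decile. The strongest and the weakest fibroblast peaks without eRBC thus recurred more often in adult red blood cells than those of the 8 deciles between. Of all fibroblast peaks, 30.7% were in aRBC, and of all those in the strongest decile 64.2%. Fibroblast peaks without eRBC in 100 kb windows with at least 10 of them, described below, had a median percent rank of 74.9. Of these, 27.1% were in aRBC, and their part in the value of the weakest decile was not tested.

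Chromosomes differed in the balance of the classes. On chromosomes 1 to 5, 29.7% of fibroblast peaks and 44.4% of eRBC peaks were overlapped. On chromosomes 11 to 33 the shares were 31.2% and 35.7%. This group includes chromosomes 27 and 33, which held 435 and 567 of its 3426 fibroblast peaks without eRBC. Their overlapped shares of fibroblast peaks were 14.5% and 18.4%, so the group values do not describe each small chromosome. Fibroblast peaks without eRBC had a density of 9.68 per Mb on chromosomes 1 to 5 and 16.9 per Mb on chromosomes 11 to 33, counted up to the last peak of any list. For eRBC peaks without fibroblast the densities were 5.03 and 13.9 per Mb, and for overlapped fibroblast peaks 4.08 and 7.67 per Mb. Chromosomes 11 to 33 held 27.4% of fibroblast peaks without eRBC and 30.0% of the overlapped ones. For eRBC peaks these shares were 37.8% of those without fibroblast and 30.5% of the overlapped ones. Of all peaks, 4977 of 17681 in fibroblasts and 4375 of 12558 in eRBC lay there.

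Among the 32 chromosomes with at least 50 peaks in both lists, the overlapped share of fibroblast peaks was lowest on chromosome 27 (14.5%) and highest on chromosome 28 (48.0%). For eRBC peaks it was lowest on chromosome 26 (22.4%) and highest on chromosome 30 (55.2%). The share was higher for eRBC than for fibroblast peaks on 21 of 34 chromosomes and lower on 13. The widest gaps were on chromosomes with many unshared fibroblast peaks. Chromosome 27 had 435 fibroblast peaks without eRBC and 106 eRBC peaks without fibroblast, and on chromosome 33 the numbers were 567 and 130. On chromosome 26 the balance was the opposite, with 64 fibroblast peaks without eRBC and 149 eRBC peaks without fibroblast.

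**Figure D4:**
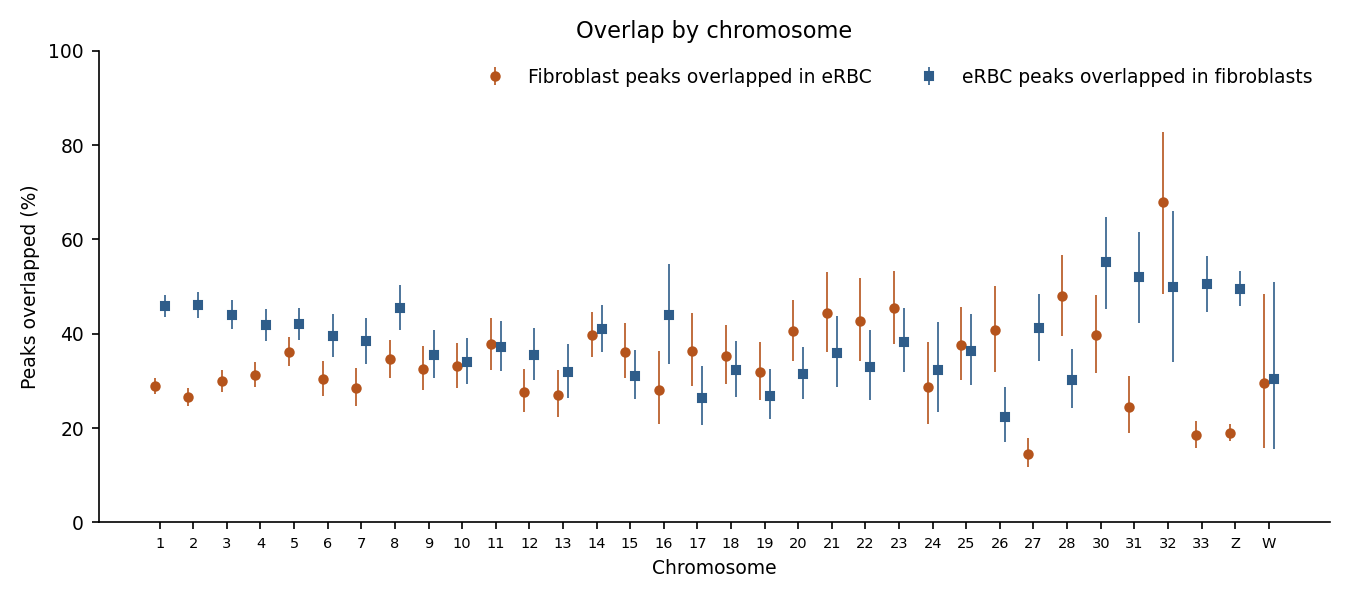
Share of fibroblast peaks overlapped in eRBC and of eRBC peaks overlapped in fibroblasts (%) by chromosome, with 95% Wilson intervals. On chromosomes 27, 31, 33 and Z the eRBC share is far above the fibroblast share (41.1% of eRBC peaks and 14.5% of fibroblast peaks on chromosome 27), while on chromosomes 26 and 28 the fibroblast share is higher.

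On the sex chromosome Z, 364 of 1916 fibroblast peaks (19.0%, 17.3% to 20.8%) and 357 of 720 eRBC peaks (49.6%, 45.9% to 53.2%) were overlapped. The gap was widest at the end of the chromosome, where beyond 73 Mb 7.27% of 1046 fibroblast peaks and 53.5% of 144 eRBC peaks were overlapped. These were 76 fibroblast and 77 eRBC peaks, so the gap restates the difference in peak counts. Between 27 and 28 Mb the shares were 32.6% of 43 fibroblast and 65.0% of 20 eRBC peaks. On the rest of the chromosome they were 33.1% of 827 fibroblast and 48.0% of 556 eRBC peaks, near those of chromosomes 1 to 5. By fold enrichment, unshared fibroblast peaks of chromosome Z stood low, with a median percent rank of 83.2, while the overlapped ones had 38.3. Of the 1552 unshared ones, 901 lay in 100 kb windows with at least 10 such peaks. Over the genome, peaks in these windows stood lower by fold enrichment but higher by q-value, as described below. Chromosome W held 27 fibroblast and 23 eRBC peaks, 8 and 7 of them overlapped. The sex of the fibroblast and eRBC samples is not given here, and its part in the values of Z and W was not tested.

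Unshared fibroblast peaks gathered in long stretches. A run was defined as neighbouring unshared peaks of 1 list with no peak of the other list and no shared peak between them. Fibroblast peaks without eRBC formed 3871 runs, and 236 runs of at least 10 peaks held 4039 of them (32.3%). Peaks of eRBC without fibroblast formed 3840 runs, of which 15 had at least 10 peaks and held 173 (2.33%). In lists of equal length the shares in such runs were 22.6% of fibroblast and 6.43% of eRBC peaks. At a −log10 q of 10 or more these were 19.2% of fibroblast and 22.8% of eRBC peaks, so the order was reversed where the fibroblast list was the shorter one.

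The longest fibroblast run had 127 peaks over 438 kb of chromosome 27, from 567720 to 1005523. The next 4 were all on chromosome Z, between 74320044 and 78705537, with 59 to 81 peaks each. In eRBC the longest run had 17 peaks on chromosome 19 from 8853633 to 9232901, a span of 379 kb. It was followed by 14 peaks on chromosome 18 from 4259246 to 4433399 and 13 on chromosome 6 from 28519163 to 28737764.

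In windows of 100 kb, 153 windows held at least 10 fibroblast peaks without eRBC, together 2605 peaks or 20.8% of the class, and 43 of these windows had no eRBC peak at all. For eRBC peaks without fibroblast 9 windows held at least 10, together 95 peaks or 1.28%, and each of them had a fibroblast peak as well. Among all windows of 100 kb, 3910 of the 6616 with a fibroblast summit (59.1%) also had an eRBC summit. Of the 4341 with an eRBC summit, 90.1% had a fibroblast one. These windows held any number of fibroblast summits, so their shares cannot show whether lack of an eRBC peak was particular to the crowded ones. The most crowded window for fibroblast peaks without eRBC was on chromosome 27 from 600001 to 700000, with 43 fibroblast peaks, no eRBC peak, no HD3 peak and 13 aRBC peaks. Windows on chromosome 14 from 100001 to 200000 and on chromosome 2 from 142700001 to 142800000 followed with 39 unshared fibroblast peaks each. The most crowded eRBC window, on chromosome 22 from 4000001 to 4100000, held 15 eRBC peaks without fibroblast, with 3 HD3 and 14 aRBC peaks. Shared peaks were most crowded on chromosome 33 from 4100001 to 4200000, where 15 of 24 fibroblast peaks were overlapped and the aRBC list had 20 peaks.

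The crowded fibroblast windows lay next to one another in blocks. On chromosome Z the block from 75600001 to 77800000 held 364 fibroblast peaks without eRBC, with 22 eRBC, 1 HD3 and 64 aRBC peaks, and the block from 73700001 to 75400000 held 295, with 16 eRBC, 2 HD3 and 48 aRBC peaks. A block on chromosome 33 from 1000001 to 2700000 held 290, with 23 eRBC, no HD3 and 142 aRBC peaks. On chromosome 27 the block from 400001 to 1500000 held 278, with 15 eRBC, 9 HD3 and 111 aRBC peaks. The windows were chosen through fibroblast peaks that no eRBC peak overlapped, so the eRBC counts are not independent of the choice. It set no limit on eRBC peaks, and the block on chromosome 14 from 100001 to 400000 held 32 of them. Over all of chromosome Z, eRBC peaks numbered 8.72 per Mb, so the 22 and 16 of its 2 blocks were not low for their spans. The HD3 and aRBC counts were not used for the choice. Over all 153 windows, 27.1% (25.4% to 28.8%) of fibroblast peaks without eRBC were in aRBC and 0.576% (0.349% to 0.948%) in HD3. Outside them the shares were 7.26% (6.77% to 7.79%) and 10.01% (9.43% to 10.6%), so the order of the 2 lists was the opposite. Both orders were kept at a −log10 q of 10 or more, in lists of equal length and without chromosomes Z and W, though outside the windows the shares at the stricter q were close, at 12.5% in aRBC and 13.3% in HD3. Peak names of the HD3 list lacked the tag CLEANED of the other lists. Whether it was processed like them is not stated, and the part of this in the shares was not tested.

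Peaks in these windows also had other values. The 2605 peaks had a median fold enrichment of 4.0 but a median −log10 q of 8.23, and the 9912 peaks elsewhere had 4.64 and 6.98. Crowded peaks therefore stood lower by fold enrichment and higher by q-value. Their median width was 123 bp, against 133 bp elsewhere, and the median gap to the nearest peak of the same list was 1027 bp, against 13095 bp. The background of the caller is local, and its part in these values was not tested.

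At close range the order of the lists was another one. Of eRBC peaks without fibroblast, 33.4% (32.3% to 34.4%) had another eRBC peak within 1 kb, and of fibroblast peaks without eRBC 20.8% (20.1% to 21.5%) had another fibroblast peak that near. Without windows that held at least 10 peaks in either list the shares were 11.7% for fibroblast and 32.7% for eRBC peaks. Leaving out crowded windows removes peaks with many neighbours by construction. It left 14039 of 17681 fibroblast and 11320 of 12558 eRBC peaks, so the wider gap is partly set by this choice. A shared peak within 1 kb was present for 4.43% of fibroblast and 11.8% of eRBC peaks, and another unshared peak for 17.7% and 23.7%. Unshared peaks made up 70.8% of the fibroblast and 59.2% of the eRBC list, so more of the possible neighbours were unshared. Most unshared peaks, 79.2% in fibroblasts and 66.6% in eRBC, had neither. Overlapped peaks had a close neighbour in 23.3% (fibroblast) and 29.0% (eRBC).

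The last question was how far unshared peaks lay from the other list. Fibroblast peaks without eRBC had a median distance of 37852 bp (36250 to 39472 bp) to the nearest eRBC peak, and eRBC peaks without fibroblast 12252 bp (11704 to 12729 bp) to the nearest fibroblast peak. The quartiles were 9762 and 114514 bp for fibroblast peaks and 3107 and 29084 bp for eRBC peaks. Distances beyond 100 kb were found for 3493 fibroblast peaks (27.9%) and 185 eRBC peaks (2.49%). The difference remained in lists of equal length, with medians of 38443 and 18387 bp. It was not seen with a −log10 q of at least 10, where the medians were 51367 bp for fibroblast and 51315 bp for eRBC peaks.

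**Figure D5:**
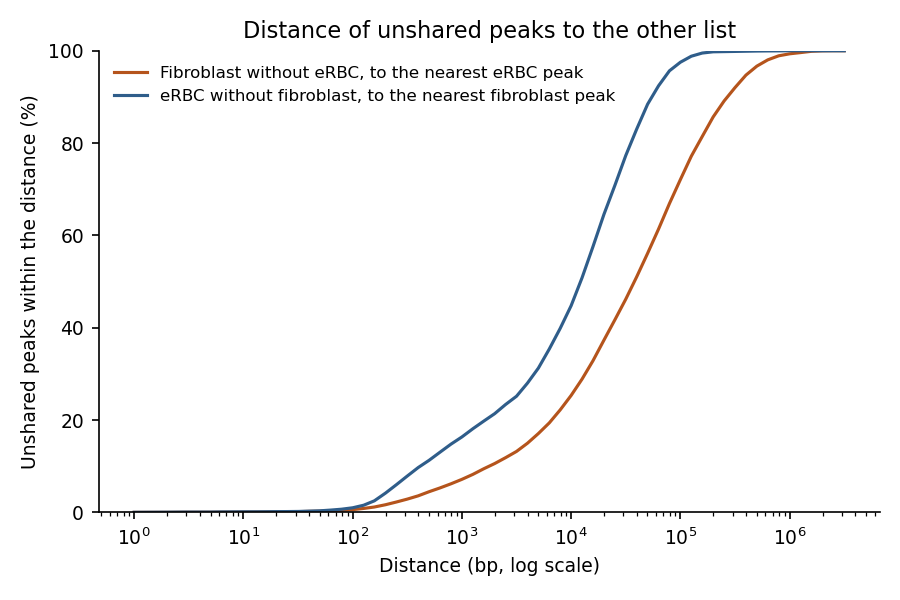
Share of unshared peaks (%) within a given distance (bp, log scale) of the nearest peak of the other list. Of fibroblast peaks without eRBC 25.3% lie within 10 kb and 72.1% within 100 kb, and of eRBC peaks without fibroblast 44.8% and 97.5%.

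On chromosomes 1 to 5 the median distances were 55868 bp for fibroblast and 11395 bp for eRBC peaks, and on chromosomes 11 to 33 they were 20945 and 13102 bp. The fibroblast value thus differed between large and small chromosomes more than the eRBC value did. The lists measured to differed in density as well. On chromosomes 1 to 5 and 11 to 33, eRBC peaks numbered 9.04 and 21.6 per Mb, and fibroblast peaks 13.8 and 24.6 per Mb. The part of density in the distances was not tested. Within 1 kb of the other list lay 897 fibroblast peaks (7.17%) and 1216 eRBC peaks (16.3%). These peaks stood low by fold enrichment, with a median percent rank of 70.7 in fibroblasts and 75.3 in eRBC. Over the whole unshared classes it was 55.8 and 62.4. Of the fibroblast ones 29.4% recurred in aRBC, against 11.4% of the class. Of the eRBC ones 44.0% did so, near the 42.7% of the class. Fibroblast peaks more than 100 kb from the eRBC list had a median percent rank of 49.5, and 4.38% of them recurred in aRBC and 10.3% in HD3.

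Only 76 fibroblast and 75 eRBC peaks missed the other list by 100 bp or less. The strongest of these were a fibroblast peak on chromosome 25 from 3067418 to 3067700, 99 bp from an eRBC peak, and an eRBC peak on chromosome 2 from 76331331 to 76331480, 100 bp from a fibroblast peak. At the other extreme, the fibroblast peak on chromosome 1 from 151726705 to 151726828 was 2255043 bp from the nearest eRBC peak. Another on chromosome 2 from 71261617 to 71261794 was 2083407 bp away, and 1 more on chromosome 1, from 151472713 to 151472841, was 2001051 bp away. None of these 3 recurred in HD3 or aRBC. No eRBC peak was more than 1 Mb from a fibroblast peak, and the 3 farthest were all on chromosome W, the first from 3713480 to 3713656 at 802991 bp.

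Agreement between the lists therefore grew with the scale of the comparison. In windows of 1 kb with a fibroblast summit, 29.1% also had an eRBC summit, and of those with an eRBC summit 42.1% had a fibroblast one. In 10 kb windows the shares were 38.5% and 56.1%, and in 100 kb windows 59.1% and 90.1%. At 1 Mb they were 92.3% and 99.9%. Larger windows meet in more cases by chance as well, which was not measured.

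The other 2 pairs of lists with fibroblasts gave the following values beside these. Fibroblast peaks were overlapped in 29.2% by eRBC, in 28.0% by HD3 and in 30.7% by aRBC. Of the peaks of the other list, 40.8% in eRBC, 42.2% in HD3 and 46.7% in aRBC overlapped a fibroblast peak. Of the strongest decile of fibroblast peaks, 54.8% were overlapped by eRBC, 54.0% by HD3 and 64.2% by aRBC. Unshared fibroblast peaks lay a median of 37852 bp from the nearest eRBC peak, and in the same comparison 37589 bp from HD3 and 39977 bp from aRBC peaks. Unshared peaks of the other list lay a median of 12252 bp from the nearest fibroblast peak in eRBC, 17445 bp in HD3 and 10430 bp in aRBC. With 1 list each these differences could not be set against replicate error.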

How the data were processed

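ATAC-seq had been done on 2 samples each of fibroblasts, eRBC, HD3 erythroblasts and adult red blood cells. The submitters' processing notes name Bowtie2 2.3.5, SAMtools 1.9, MACS2 2.1.2 and the build GRCg6a, without roles; read filters, Tn5 offsets and how samples were combined are not given in the sources used here. In the deposited lists each peak has the authors' fold enrichment (a ratio), −log10 p and −log10 q of the caller (lowest −log10 q 2.02 in fibroblasts and 2.04 in eRBC). The deposited score equalled 10 times the −log10 q, cut to a whole number, in 100% of peaks. Ranks by these values were taken only within a list. The cut at a −log10 q of 10 was the same in every list, though values of different lists are not comparable. Read depth is unknown.

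Positions were written from 1. Distances are gaps between intervals. Shares have Wilson intervals and medians binomial order-statistic intervals. The code (matplotlib 3.10.9, SciPy 1.17.1, pandas 2.3.3 and NumPy 2.4.6 in Python 3.11.15) was tested on simulated lists, and 8 of 8 overlap counts and distance sums were equal to bedtools 2.31.1.

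Peaks named were the 5 best-ranked pairs, the 5 strongest, 3 farthest and 3 strongest near misses (within 100 bp) of each unshared class, and the most crowded windows. The comparison, rules and alternatives were chosen with earlier results of these data known.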

Additional observations from a re-analysis of the deposited data

How the results depend on the processing

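No paired analysis was possible because there is 1 peak list per cell type and how the numbers in the peak names relate to the samples is not stated, so that no sample was left out either. Of 98 values under 7 alternatives, 63 moved beyond the counting interval, and the causes were not tested. By construction, the stricter and the shortened lists hold fewer peaks, and leaving out crowded windows removes peaks with many neighbours. Under all alternatives run on them, shared peaks stayed wider than unshared ones in both lists, and the strongest deciles stayed more overlapped than the weakest. Throughout, eRBC peaks without fibroblast also recurred more often in HD3 or aRBC than fibroblast peaks without eRBC. That last order is partly set by how the classes are defined. Alternatives on recurrence, runs, crowded windows and the weakest deciles were added after the data were seen.

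With a −log10 q of at least 10, 39.1% of fibroblast and 25.04% of eRBC peaks were overlapped. Median widths were 241.5 bp for overlapped and 170.0 bp for unshared fibroblast peaks, and 334 and 255 bp for eRBC peaks. Median distances were 51367 bp (fibroblast) and 51315 bp (eRBC), and 17.2% and 20.6% of unshared peaks had a neighbour within 1 kb. In lists of equal length the overlapped shares were 33.6% of fibroblast and 33.7% of eRBC peaks, and 77.9% in the strongest eRBC decile. Widths were 199 and 144 bp in fibroblasts and 300 and 201 bp in eRBC, the eRBC distance was 18387 bp and the fibroblast share with a neighbour within 1 kb 17.9%. Requiring 50% of the shorter peak to overlap gave 28.5% of fibroblast and 39.9% of eRBC peaks, and 200 bp around the summits 27.8% and 39.0%. Without the 241 windows of 100 kb with at least 10 peaks in either list, the shares were 32.2% and 39.4%, and 61.8% in the strongest fibroblast decile. The width of unshared fibroblast peaks was then 134 bp and of overlapped eRBC peaks 306 bp, distances were 49171 bp (fibroblast) and 13134 bp (eRBC), and 11.7% of unshared fibroblast peaks had a neighbour within 1 kb. Without chromosomes Z and W, 30.4% of fibroblast peaks were overlapped, unshared fibroblast peaks were 133 bp wide and 19.6% of them had a neighbour within 1 kb. Ranked by −log10 p, 86.3% of the strongest eRBC decile were overlapped.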
